A study of Mus musculus with 2 samples.

Results

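Closed promoters rich in CpG are promoters whose sequence has many CpG dinucleotides but which lacked a nearby peak in the lung. Each of the 2 lung libraries has a smaller and a larger list of peaks. Peaks and distances given here are of the smaller lists unless the larger ones are named. They were chosen by sequence and by the absence of a peak. Each of the 20807 autosomal protein-coding genes contributed the 1001 bp centred on its 5′ end, and 8717 of these regions had a CpG observed/expected ratio of 0.65 or more. The ratio sets the number of CpG dinucleotides against the number that the C and G content of the region would give if bases were placed independently. A CpG-rich promoter was called closed when neither library had a peak within 1 kb of any annotated transcript 5′ end of the gene. This held for 303 promoters, which is 3.48% of the CpG-rich ones, while 31.4% of all promoters were closed. Closed does not mean without any call: 128 of the 303 (42.2%) had a peak of the larger list within 1 kb in at least 1 library. The other 8414 CpG-rich promoters had a peak in at least 1 library and are called open here, and 6229 promoters below the ratio had no peak either.

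The study mapped accessible chromatin by DNase-seq, in which DNase I cuts unpacked DNA preferentially and sequencing locates the cuts. Its 2 libraries, replicates 1 and 2 of 1 group with no contrast, are of lung taken at 14 days of age from male B6CASTF1/J mice, a hybrid strain. The labels name a pool of 3 males for replicate 2 and only the sex for replicate 1, and give both the same donor record. Replicates may therefore share animals. Whole lung mixes epithelial, endothelial, stromal and immune cells, so a promoter that is open in few of the cells and one that is closed in all of them cannot be told apart. Of 15 genes that mark lung cells, 14 had a promoter peak in replicate 1 and 13 in replicate 2. Scgb1a1, the secretory protein of club cells, had none in either library, and Sftpd, a surfactant protein, had none in replicate 2. The promoters of Alb, Myh6 and Ptprc, which mark liver, heart muscle and blood cells, had no peak in either library, and that of Snap25, which marks neurons, had one in both.

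Promoters in CpG islands are usually unmethylated and accessible in most tissues, whether or not the gene is strongly transcribed. Known exceptions occur among the genes of developmental regulators, which Polycomb complexes keep silent outside their lineage. Others occur among germ-line genes whose promoters are methylated in somatic cells, and among the clustered protocadherins, of which each neuron uses a few. The CpG-rich promoters here were chosen by the CpG ratio alone, with no limit on G+C content, so they are not all CpG islands. Of the 303 closed ones 28 had under 50% G+C. Neither Polycomb marks nor DNA methylation were measured here. The promoters were described only by the deposited peaks, cleavage calls and footprints and by their sequence. No test was made of closed against open promoters, since the peaks of both libraries chose the members.

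Promoter sequences are shown for 4 closed promoters of different kinds, each with 250 bases before the 5′ end and 50 from it on, with every CpG in capitals. They are from the GRCm38 (mm10) genome, read 5′ to 3′ on the strand of the gene. Hoxd1, a homeobox factor of the HoxD cluster, lies at chr2:74762730-74763029 (plus strand). Neurog1, a bHLH factor of neuron formation, lies at chr13:56252114-56252413 (minus strand). Ddx4, the VASA helicase of germ cells, lies at chr13:112652426-112652725 (minus strand). Bves, a membrane protein of muscle and epithelium and the member with the highest CpG ratio, lies at chr10:45335522-45335821 (plus strand). In the larger lists Hoxd1 had a peak within 1 kb in both libraries and Bves in replicate 1 only. Neurog1 and Ddx4 had none within 1 kb in either library.
Hoxd1: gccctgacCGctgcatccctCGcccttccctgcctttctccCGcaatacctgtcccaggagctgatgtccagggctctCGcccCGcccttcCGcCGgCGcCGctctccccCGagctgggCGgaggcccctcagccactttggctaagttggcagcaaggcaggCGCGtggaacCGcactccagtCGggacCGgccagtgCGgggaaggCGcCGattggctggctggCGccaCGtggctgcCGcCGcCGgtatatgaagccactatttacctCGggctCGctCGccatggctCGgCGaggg
Neurog1: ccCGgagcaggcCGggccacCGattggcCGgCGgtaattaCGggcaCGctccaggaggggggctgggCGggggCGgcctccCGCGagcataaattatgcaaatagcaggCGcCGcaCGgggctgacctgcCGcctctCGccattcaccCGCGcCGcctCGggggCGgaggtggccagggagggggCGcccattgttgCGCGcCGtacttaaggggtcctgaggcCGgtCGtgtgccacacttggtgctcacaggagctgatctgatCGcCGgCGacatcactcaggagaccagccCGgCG
Ddx4: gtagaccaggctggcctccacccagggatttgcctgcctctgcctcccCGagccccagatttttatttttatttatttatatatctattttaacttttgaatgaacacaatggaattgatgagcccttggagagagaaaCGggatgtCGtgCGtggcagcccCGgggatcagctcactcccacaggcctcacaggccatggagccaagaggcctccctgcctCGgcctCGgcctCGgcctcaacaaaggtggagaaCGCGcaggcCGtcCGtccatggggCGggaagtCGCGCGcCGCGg
Bves: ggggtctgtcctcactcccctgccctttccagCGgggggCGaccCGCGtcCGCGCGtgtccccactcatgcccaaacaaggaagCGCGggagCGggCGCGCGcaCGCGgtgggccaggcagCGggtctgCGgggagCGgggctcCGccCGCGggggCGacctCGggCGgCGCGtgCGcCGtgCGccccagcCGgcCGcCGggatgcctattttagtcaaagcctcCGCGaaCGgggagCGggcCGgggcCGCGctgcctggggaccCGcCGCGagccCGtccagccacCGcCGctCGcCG
The stretch held 29 CpG in Hoxd1, 32 in Neurog1, 18 in Ddx4 and 47 in Bves. Its G+C content was 69.7% in Hoxd1, 70% in Neurog1, 58% in Ddx4 and 78.3% in Bves. Bves thus held the most CpG of the 4 stretches and Ddx4 the fewest.

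By composition the closed promoters overlapped the open ones over most of the range. A CpG ratio of 1 or more was found in 6 closed and 395 open promoters, with a maximum of 1.08 in closed and 1.19 in open ones. The CpG ratio had a median of 0.754 in closed promoters (quartiles 0.698 and 0.832) and 0.804 in open ones (quartiles 0.732 and 0.886). The G+C content had a median of 62.5% in closed and 61.7% in open promoters. The median number of CpG per region was 72 in closed and 75 in open promoters, and it ran from 20 to 153 in closed ones. Along the region the CpG of closed promoters followed the same course as in open ones: the first 100 bases from the 5′ end held a mean of 10.4 CpG in closed and 10.9 in open promoters, and the outermost 100 bases upstream held 3.52 and 3.68 in closed and open ones.

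**Figure D1:**
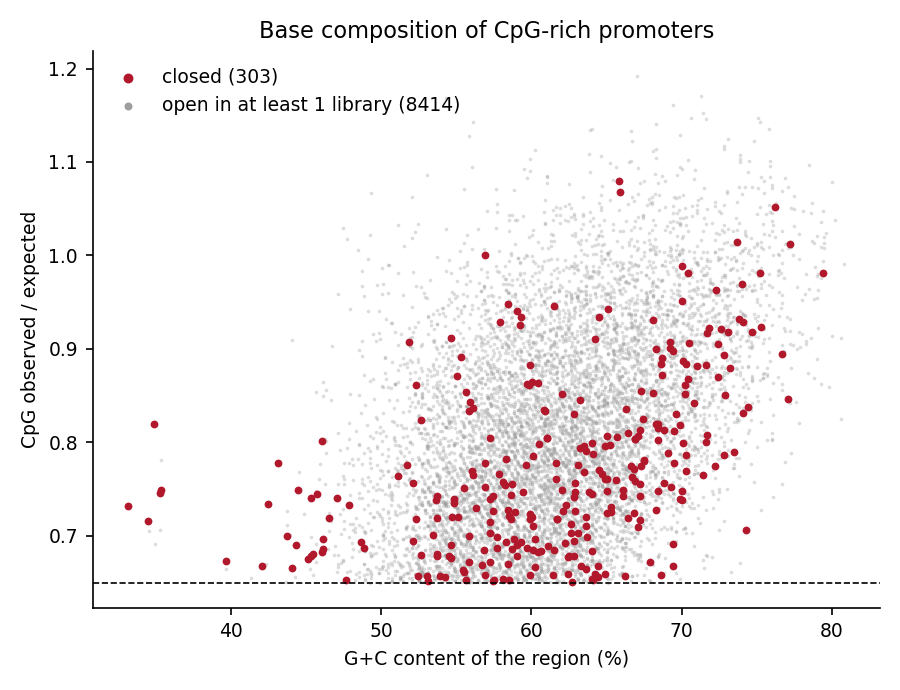
G+C content (x axis, %) and CpG observed/expected ratio (y axis) of the 1001 bp regions, with 303 closed promoters in red, 8414 open ones in grey and the threshold of 0.65 as a dashed line. Closed promoters lie across most of the cloud, up to a ratio of 1.08, with 28 under 50% G+C.

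The members with the highest ratio were Bves at 1.08, Barhl2, a homeobox factor, at 1.07, Paqr9, a membrane receptor of the progestin receptor family, at 1.05, Trank1 at 1.01 and Sall3, a zinc finger factor of development, at 1.01. After them came Dchs1, a giant cadherin of planar polarity, at 0.989, Cabp7, a calcium-binding protein, at 0.982, Ajap1 at 0.982, Zdbf2, an imprinted gene, at 0.981 and Zfp618 at 0.970. At the other end, Lhfpl3, Hoxc9, 5730596B20Rik and Sycp3 were just inside the threshold at 0.6504, 0.651, 0.652 and 0.652, and Hist1h2aa, Gabra2, Tescl and Ly6h, which had no peak either, were just outside it at 0.649, 0.649, 0.648 and 0.648. At low G+C, 28 closed promoters (9.24%) and 199 open ones (2.37%) had under 50%, and of the 245 closed promoters with at least 90% unique sequence (31-base words found once in the genome) 9 did (3.67%). Of the 6 closed promoters under 40%, Gm10721, Gm17535 and Gm10715 are unnamed models, were between 93.6% and 97.4% repeat by the masking of the genome, and had 0%, 2.68% and 6.59% unique sequence.

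The closed promoters also differed in how much of their sequence is found elsewhere in the genome. Uniqueness was taken as the share of 31-base words of a region that occur once in the chromosomes of the genome. It was under 90% in 58 of the 303 closed promoters (19.14%) and in 502 of the 8414 open ones (5.97%), and under 10% in 24 closed and 9 open promoters. Regions without any unique word included those of Hist1h2ao, Hist1h2ap, Hist1h2bq and Hist1h2br, which encode histones, the neighbours Fam177a, Srp54b and 1700047I17Rik2 on chromosome 12, and Entpd4, Entpd4b and Slc25a37 on chromosome 14. How the authors treated reads with several matches is not given in the sources used here, and its part in these calls was not tested. Bases at a false discovery rate (FDR) of 0.05 or below stood in 11 of the 58 regions (19.0%) in replicate 1. In replicate 2 they stood in 6 (10.3%). Of the closed promoters with at least 90% unique words, 97 (39.6%) and 36 (14.7%) had such bases in replicates 1 and 2. Among the least unique regions, that of Gm32687, with 3.19% unique words, had 156 such bases in replicate 2. That of Tcte3, with 0.412%, had 43 in replicate 1 and 100 in replicate 2. The other 245 closed promoters had at least 90% unique words.

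Closed promoters also had fewer annotated starts. The median number of transcript 5′ ends was 2 in closed and 5 in open promoters, and 126 closed promoters (41.6%) and 931 open ones (11.1%) had a single one. The rule counts a peak near any of them, and the part of this in the difference was not tested. Another protein-coding gene starting on the opposite strand within 1 kb upstream was annotated for 6 closed promoters (1.98%) and 1115 open ones (13.3%). A peak at the start of such a neighbour also falls within the 1 kb of the rule, and the part of this was not tested. The 6 were Nr2e1 and 5 histone genes, Hist1h2ao, Hist1h2ap, Hist1h2ba, Hist1h2bq and Hist1h2br, whose regions had under 90% unique words. Among closed promoters with at least 90% it was 1 of 245 (0.408%).

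Many closed promoters belonged to regulators of development. In 7 lists of transcription factor families combined, 62 of 179 CpG-rich promoters (34.6%) were closed, against 3.48% of all CpG-rich promoters. These 62 are 20.5% of the closed promoters. The share by list ran from 66.7% in the Hox clusters (14 of 21; exact binomial 95% interval 43.0 to 85.4%) to 7.14% in the SOX family (1 of 14; 0.181 to 33.9%). The intervals cover counting error only, and neighbouring genes of a cluster are not independent. The gene lists here and below were chosen with earlier results of these data known. The part of that choice in their shares was not tested.

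**Figure D2:**
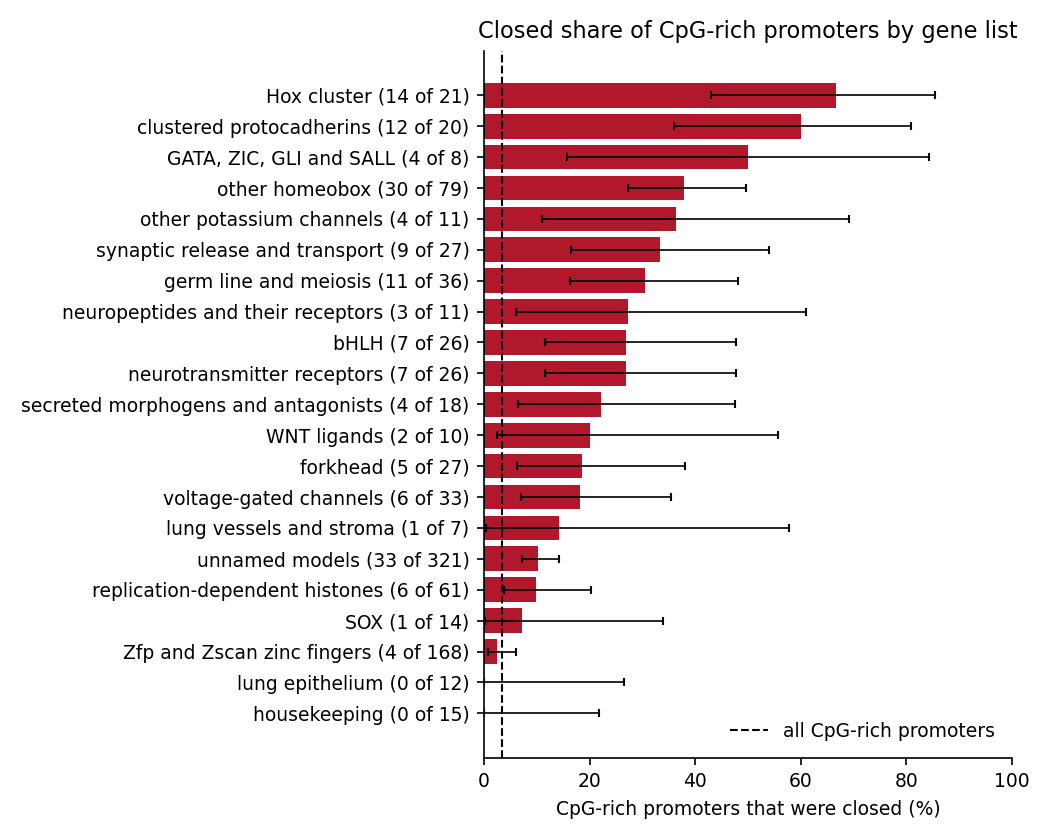
Share of CpG-rich promoters that were closed (x axis, %) in each gene list with at least 7 of them, with closed and CpG-rich counts beside the name and exact binomial 95% intervals as lines. The dashed line is the 3.48% of all CpG-rich promoters, and the Hox clusters at 66.7% are highest.

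The closed Hox promoters, whose products pattern the body axis, came from all 4 clusters: Hoxa11 and Hoxa13; Hoxb8 and Hoxb9; Hoxc8, Hoxc9, Hoxc11 and Hoxc12; and Hoxd1, Hoxd3, Hoxd4, Hoxd8, Hoxd9 and Hoxd13. The open ones include Hoxa5, Hoxb5 and Hoxc13, and none was in the HoxD cluster. Hoxd3 and Hoxd4 are 1 start in effect, since their annotated 5′ ends lie 2 bp apart and their regions share 999 bases. Hoxd9, Hoxd8, Hoxd3 and Hoxd4 were 4 neighbours on chromosome 2 that were all closed by the smaller lists, over 14.2 kb. All 4 had a peak of the larger list within 1 kb in replicate 1, and none of them did in replicate 2. By the smaller lists the closed Hox promoters farthest from a peak were Hoxd1 and Hoxc12. Hoxd1 lay at 46960 bp in replicate 1 and 46940 bp in replicate 2, and Hoxc12 at 14517 bp and 15769 bp in the same order. Hoxc11 had a distance of 12114 bp in both libraries and Hoxc9 had 9759 bp in replicate 1 and 9739 bp in replicate 2. In the larger lists a peak lay over the 5′ end of Hoxd1 in replicate 1 and 30 bp from it in replicate 2. Hoxd1 was the 1 closed Hox promoter with such a peak within 1 kb in replicate 2.

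Among other homeobox factors 30 of 79 CpG-rich promoters (37.97%) were closed. They include factors of the forebrain, eye and hypothalamus (Otx2, Six6, Otp, Vax1, Lhx5), of neural crest, muscle and kidney (Pax3, Pax2), of jaw and limb (Dlx2, Dlx3, Dlx5, Dlx6) and of the gut and skeleton (Cdx1, Barx1, Nkx3-2). The nearest peak to Pou3f2, a factor of neurons, lay at 130526 bp in replicate 1 and 130486 bp in replicate 2. For Pax3 the values were 95447 bp in replicate 1 and 95347 bp in replicate 2, and for Irx4, a factor of heart ventricles, 50164 bp and 50184 bp in that order. Peaks of the larger lists lay nearer, at 6674 bp and 18652 bp from Pax3 in replicates 1 and 2. For Irx4 they lay at 8330 bp and 8362 bp. The libraries differed for Otx2, which stood 36733 bp from a peak in replicate 1 and 137568 bp in replicate 2. In the larger lists a peak lay over a 5′ end of Otx2 in replicate 1, and the nearest in replicate 2 was at 35620 bp. The open homeobox promoters include Nkx2-1, the regulator of lung epithelium.

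Of the bHLH factors 7 of 26 (26.9%) were closed, among them Neurog1 and Neurod1 of neurons, Olig2 of oligodendrocytes, Ptf1a of pancreas and cerebellum and Hand2 of heart and limb. None of the 7 had a base at FDR 0.05 or below or a peak of the larger list in either library. Closed forkhead promoters numbered 5 of 27 (18.5%), namely Foxb1 and Foxb2 of the nervous system, Foxd3 of neural crest, Foxe3 of the lens and Foxl2 of the ovary, while Foxf1 and Foxj1, factors of lung mesenchyme and of ciliated cells, were open. Sox1, of neural progenitors, was the 1 of 14 SOX promoters and Tbx21, of T helper cells, the 1 of 4 T-box promoters. Zic1, Zic2 and Zic4 of the cerebellum and Sall3 made 4 of 8 in the list of GATA, ZIC, GLI and SALL factors. Zic4 and Zic1 lay 765251 bp and 781851 bp from a peak in replicate 1 and 765291 bp and 781891 bp in replicate 2. Of the 4 closed promoters of this list, 2 had a base at FDR 0.05 or below in replicate 1 and 1 in replicate 2. Sall3 had such bases in replicate 1 only and Zic2 in neither library, so the others were at Zic1 or Zic4.

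Genes of neurons formed a further group. In 5 lists combined 29 of 108 CpG-rich promoters (26.9%) were closed, against the same 3.48%. They were 6 of 33 voltage-gated channels, 4 of 11 other potassium channels, 7 of 26 neurotransmitter receptors, 3 of 11 neuropeptides and their receptors and 9 of 27 proteins of synaptic release and transport. The channels include Kcnq3, a subunit of the M current channel, Kcnc4, Kcnd2, Hcn2 and the calcium channel Cacna1i. The receptors include the GABA receptor subunits Gabra5 and Gabrg3, the glycine receptor subunit Glrb, the kainate receptor Grik3, the serotonin receptor Htr6 and the dopamine receptor Drd5. The transport list includes Slc32a1, Slc18a3 and Slc6a4, which carry GABA or glycine, acetylcholine and serotonin. Distances were long for Npbwr1, a neuropeptide receptor, with 256543 bp in replicate 1 and 297123 bp in replicate 2, and for Syt10, a synaptotagmin, with 111360 bp and 218000 bp in that order. Gabrg3 and Gabra5 lay 37831 bp and 34951 bp from a peak in replicate 1 and 228397 bp and 190474 bp in replicate 2, so the nearest peak of replicate 1 had no counterpart as near in replicate 2. Among voltage-gated channels Kcnc4, Cacna1i and Hcn2 were closer to peaks, at 2709 bp, 2027 bp and 1447 bp in both libraries. Kcnq3 lay at 1371 bp in replicate 1 and 10899 bp in replicate 2.

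The germ line and meiosis list had 11 of 36 CpG-rich promoters closed (30.6%). They were Ddx4, Mael, Tdrd1, Tdrd6, D1Pas1 and Fkbp6, of germ-cell RNA handling and the piRNA pathway, Sycp1, Sycp3, Hormad1 and Tex12, of the meiotic chromosome axis and synaptonemal complex, and Slc25a31, a nucleotide carrier of sperm mitochondria. The nearest peak to Sycp1 lay at 29683 bp in replicate 1 and 29703 bp in replicate 2, that of Mael at 15234 bp and that of Ddx4 at 8106 bp in both. Only Tdrd1 in replicate 1, with 9 bases, and Tdrd6 in replicate 2, with 13, had any base at FDR 0.05 or below. None of the 11 had a peak of the larger list, so the closed share of the list was 30.6% with the smaller and the larger lists alike. The 25 open promoters include Dazl, Stag3, Prdm9 and Mei1, and all 25 had a peak in both libraries. That of Mei1 was just inside the limit, at 954 bp in replicate 1 and 989 bp in replicate 2.

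Of the clustered protocadherins, adhesion proteins of neurons encoded on chromosome 18, 12 of 20 CpG-rich promoters (60%) were closed. These were Pcdha1 to Pcdha7, both gene models named Pcdha11, and Pcdhga5, Pcdhga8 and Pcdhga10. Pcdha1, Pcdha2, Pcdha3, Pcdha4, Gm42416, Pcdha5 and Pcdha6 formed the longest run of neighbours that were all closed, with 7 genes over 37.4 kb, and the regions of Pcdha4 and Gm42416 share 908 bases. Pcdha1 lay 62576 bp from a peak in replicate 1 and 127044 bp in replicate 2, and Pcdha2 lay 53637 bp and 136065 bp in that order. For Pcdha3 and Pcdha4 the values were 46756 bp and 40186 bp in replicate 1 and 142965 bp and 137226 bp in replicate 2. The promoters of the alpha genes resemble each other: 9 of the 12 closed ones had under 90% unique words, from 71.0% in Pcdha6 to 82.8% in Pcdha1. With such regions left out 3 of 8 were closed (37.5%).

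Smaller groups were secreted morphogens and antagonists with 4 of 18 (Ihh, Gdf7, Grem1 and Sfrp5), WNT ligands with 2 of 10 (Wnt3a and Wnt6), FGF ligands with 1 of 5 (Fgf8) and the embryonic and placental list with 1 of 4 (Trim71, a known target of the let-7 microRNA). Grem1, a BMP antagonist, lay 49155 bp from a peak in replicate 1 and 49135 bp in replicate 2, while Ihh, a hedgehog ligand, lay 1442 bp and 2363 bp from one in that order. Fgf8 lay 3566 bp from a peak in both libraries and Wnt3a lay 2969 bp and 2980 bp from one in replicates 1 and 2. In the larger list of replicate 1 a peak lay over the 5′ ends of Grem1 and Wnt3a, but that of replicate 2 had none within 1 kb. Of the replication-dependent histones 6 of 61 were closed, all with under 90% unique words, and with such regions left out 0 of 4 were. The Zfp and Zscan zinc finger genes had 4 of 168 (2.38%), a share near that of all CpG-rich promoters. One of them, Zfp804a, had the longest distance of all, 1083722 bp in replicate 1 and 1390168 bp in replicate 2, by the smaller lists. In the larger lists its nearest peak lay at 39 bp in replicate 1 and 81556 bp in replicate 2. The region of Zfp804a had 148 bases at FDR 0.05 or below in replicate 1 and none in replicate 2. Unnamed gene models had 33 of 321 closed (10.3%), and 22 of these 33 had under 90% unique words. With such regions left out 11 of 270 were closed (4.07%), near the 3.48% of all CpG-rich promoters.

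No promoter of the lung epithelium list (0 of 12, exact 95% upper limit 26.5%) and none of the housekeeping list (0 of 15, upper limit 21.8%) was closed. In the list of lung vessels and stroma 1 of 7 was, namely Wt1, a factor of kidney and mesothelium, which lay 17469 bp from a peak in replicate 1 and 3538 bp in replicate 2. In the larger lists a peak lay over a 5′ end of Wt1 in replicate 1, and the nearest in replicate 2 was at 3458 bp. By replicate 2 alone 8.33% of the lung epithelium list and 42.9% of the list of lung vessels and stroma were closed. A further 137 closed promoters (45.2%) were in no list. That is 1.77% of the 7759 CpG-rich promoters in no list, below the 3.48% of all CpG-rich promoters. The part of the choice of lists in this difference was not tested. The closed promoters in no list include Dmrt1 and Dmrt3 of the gonad and Fezf1, Sp9, Skor1, Skor2 and Tfap2d of the nervous system. The neuronal genes Elavl3, Rbfox1, Nrg3, Dscam and Slit1 are also among them. So are Nags, Gcgr, Slc25a37, Hrasls5 and H2-Q10, which were not grouped here. All these genes were chosen for naming after their values were seen, and the names do not describe the 137 as a set.

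Away from the promoter, the nearest peak lay at a median of 6342 bp in replicate 1 (quartiles 2695 and 23458) and 9723 bp in replicate 2 (quartiles 3592.5 and 39202.5). The closed promoters below the ratio had medians of 23461 bp and 27745 bp in replicates 1 and 2. In both libraries at once 149 closed CpG-rich promoters (49.2%) had a peak within 10 kb and 37 (12.2%) had none within 50 kb, against 29.1% and 36.8% of the closed promoters below the ratio. The distances of the libraries lay within 20 bp of each other for 154 of the 303 promoters. For 114 the nearest peak was farther in replicate 2, which has 77403 peaks, and for 35 it was farther in replicate 1, which has 94786. Just past the limit of 1 kb stood Pcdh15, at 1002 bp in replicate 1 and 1042 bp in replicate 2, Prr23a3 at 1022 bp and 45007 bp, Vstm2l at 1033 bp in both and Slc6a4 at 1043 bp in both. Just inside it stood Msi1 at 983 bp in replicate 1 and 1027 bp in replicate 2, Mei1 at 954 bp and 989 bp, Phox2a at 955 bp and 939 bp and Mnx1 at 922 bp and 43150 bp.

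**Figure D3:**
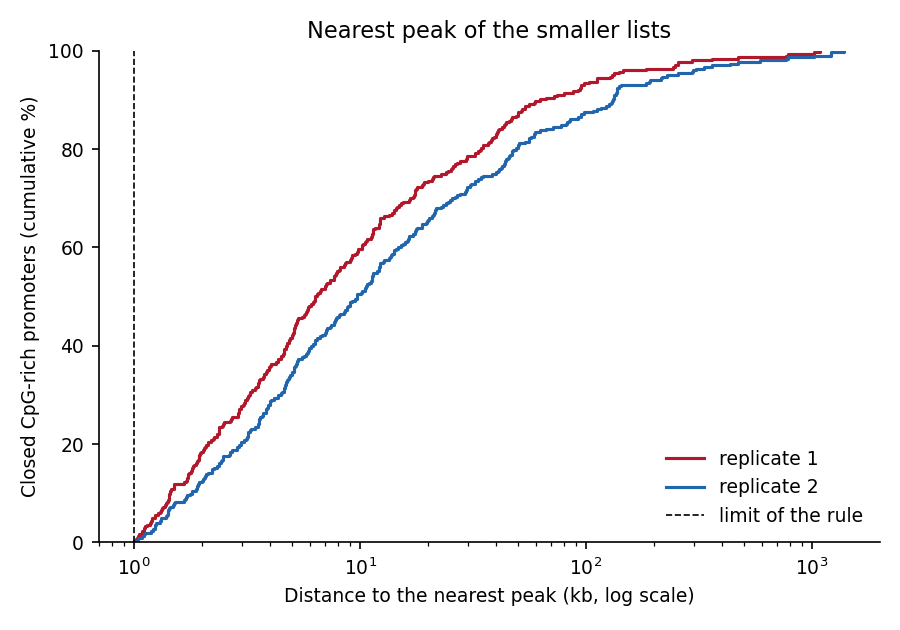
Cumulative share (y axis, %) of the 303 closed CpG-rich promoters by distance to the nearest peak (x axis, kb, log scale) in replicate 1 (red) and replicate 2 (blue), with the limit of 1 kb dashed. The median was 6342 bp in replicate 1 and 9723 bp in replicate 2.

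Cleavage below the peak rule was found in part of the closed promoters. In the larger peak lists, 115 of 303 (37.95%, exact 95% interval 32.5 to 43.7%) had a peak within 1 kb of a transcript 5′ end in replicate 1 and 41 (13.5%, 9.89 to 17.9%) in replicate 2, a mean of 25.7 ± 17.3% (SD, n = 2). Of all CpG-rich promoters 97.8% and 96.6% did in replicates 1 and 2. Bases at FDR 0.05 or below stood in 108 of the 303 regions (35.6%) in replicate 1 and 42 (13.9%) in replicate 2, a mean of 24.8 ± 15.4% (SD, n = 2), and in 97.2% and 95.7% of all CpG-rich regions. Footprints, short stretches protected from cleavage within accessible DNA, were listed in 55 regions in replicate 1 and 11 in replicate 2, with at most 4 and 2 in a region, and in 95.4% and 93.1% of all CpG-rich regions. These shares differ from the open ones by the choice of members.

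The libraries shared a part of this signal. Of the regions with such a base in replicate 1, 29 had one in replicate 2 as well, which is 26.9% of the 108 in replicate 1 and 69.0% of the 42 in replicate 2. In 162 promoters no library had either a peak of the larger list or a base at FDR 0.05 or below. More such bases were listed in replicate 1 for 99 regions and in replicate 2 for 22. At FDR 0.001, 10 regions in replicate 1 and 3 in replicate 2 had a base, and none had one in both. The closed promoters below the ratio had a base at FDR 0.05 or below in 7.63% and 5.07% of regions in replicates 1 and 2. Among CpG-rich ones, the share in replicate 1 was 42.9% at 60% G+C or more and 24.8% under 60%, and in replicate 2 it was 13.2% and 14.9%, so the order did not hold in both libraries.

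The members with the most such bases in the 1001 bp were Sema4g, a semaphorin, with 443 in replicate 1 and 229 in replicate 2, Hrasls5, an acyltransferase that acts on phospholipids, with 353 and 180, and Zfp618 with 360 and 140. Foxl2 had 552 and 0, Bves had 459 and 7 and Dchs1 had 429 and 0. Sema4g, Hrasls5 and Zfp618 thus had bases in both libraries, while those of Foxl2 and Dchs1 were in replicate 1 alone and those of Bves almost so. The open promoters had medians of 873 and 824 bases in replicates 1 and 2. By the score of the authors, the highest peaks of the larger lists seen in both libraries were at Nrn1, a neuritin, at the 53.5th percentile of the list of replicate 1 and the 47.0th of replicate 2. Dchs2 stood at 44.8 and 39.4, Sync, a filament protein of muscle, at 56.1 and 28.1, Dlx6 at 46.2 and 37.0, Col15a1, a basement membrane collagen, at 46.7 and 33.6, and Tmem181a, whose region had 11.0% unique words, at 32.8 and 41.7. The peak of Nrn1 lay at another transcript 5′ end, and its region had no base at FDR 0.05 or below.

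**Figure D4:**
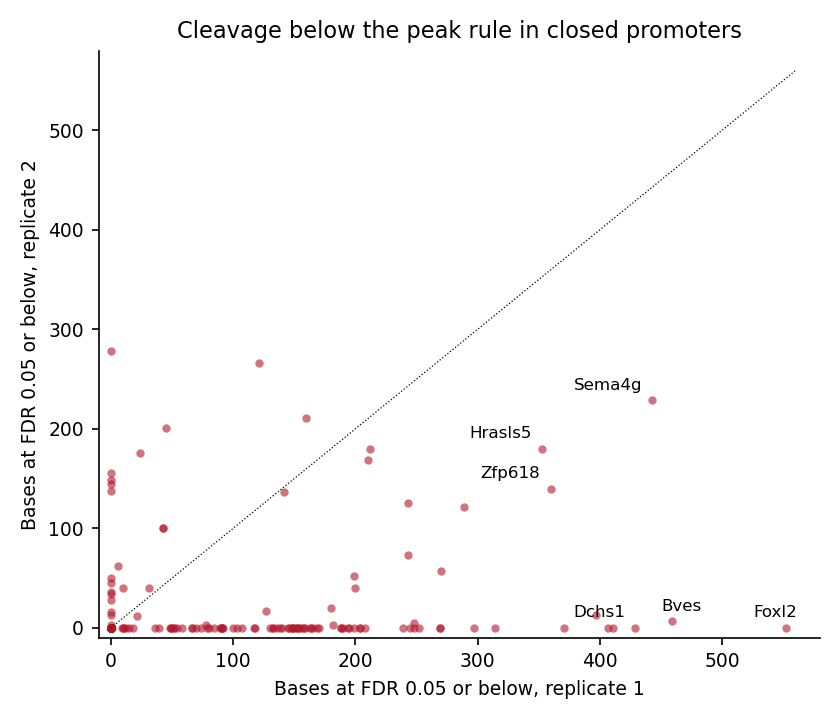
Number of bases at FDR 0.05 or below in the 1001 bp region in replicate 1 (x axis) and replicate 2 (y axis), 1 point per closed CpG-rich promoter, with equality dotted. Most points lie on the x axis or at the origin, and Foxl2 has the most in replicate 1 with 552.

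Regions with a base at FDR 0.05 or below were also counted by group. In replicate 1 they were 21 of 62 promoters (33.9%) in the 7 transcription factor lists, 14 of 29 (48.3%) in the 5 neuronal lists, 1 of 11 in the germ line list and 3 of 12 among the clustered protocadherins. In replicate 2 they were 7 of 62 (11.3%), 7 of 29 (24.1%), 1 of 11 and 1 of 12. Over all 303 the shares were 35.6% and 13.9%. Of the Hox promoters 6 of 14 had such bases in replicate 1, with 199 in Hoxd1, and Hoxd1 was the 1 Hox promoter with bases in replicate 2, where it had 52. Among the neuronal genes Sv2c, a synaptic vesicle protein, had 212 bases in replicate 1 and 180 in replicate 2, Rims4, a protein of the active zone, 210 and 169, and Kcnd2 160 and 211.

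Motifs of known activators of CpG-rich promoters were counted as exact letters on both strands of the 1001 bp unless said otherwise. Matches of different motifs may share bases, as the GC box does with the E2F motif read on the other strand. The motif of ETS factors (CCGGAAGT) was in 11 of 303 closed promoters (3.63%, exact 95% interval 1.83 to 6.403%) and 1096 of 8414 open ones (13.03%). That of NRF1 (GCATGCGC) was in 3.30% of closed and 9.26% of open promoters, that of YY1 (AAGATGGCG) in 0.660% and 7.12%, that of BANP (TCTCGCGA) in 1.32% and 4.29%, and the CRE (TGACGTCA) in 3.30% and 5.38%. NFY motifs (CCAAT followed by CA, CG, GA or GG) were in 31.7% of closed and 36.1% of open promoters. The GC box of SP and KLF factors (GGGGCGGG) was in 48.8% and 55.5%, and the E2F motif (TTCCCGC) in 20.1% and 26.7%. The E-box (CACGTG) was in 24.4% and 22.7%. The motif of the neuronal repressor REST (CAGCACC, any 2 bases and GGACAG, with up to 2 of 13 letters mismatched) was in 10.2% and 8.38%, and TATAAA on the gene strand from 45 to 15 bases before the 5′ end in 1.65% and 0.784%.

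**Figure D5:**
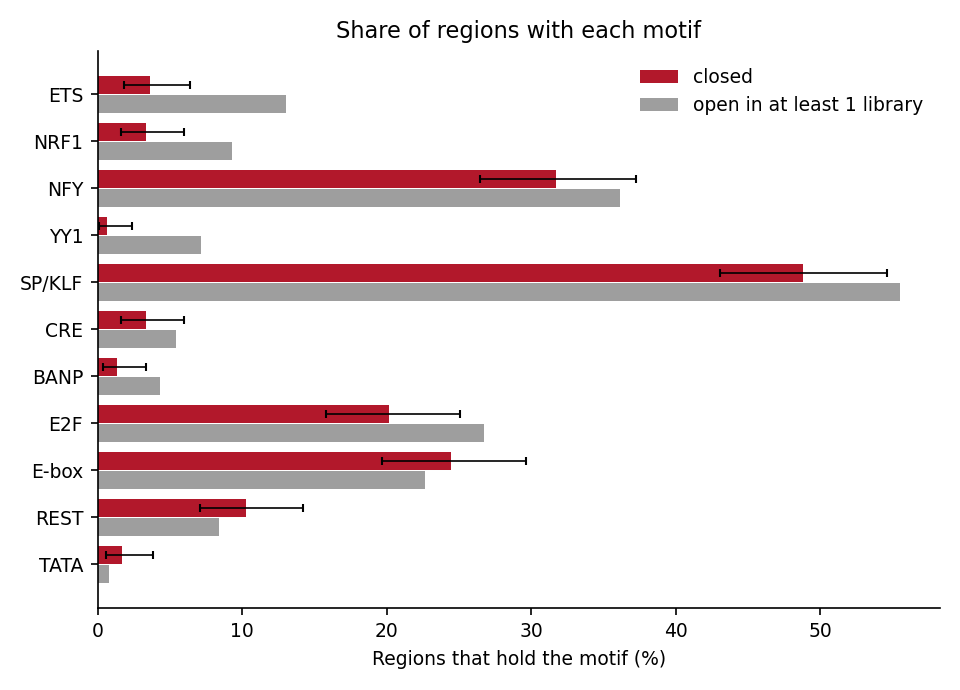
Share of regions (x axis, %) that hold each motif in 303 closed CpG-rich promoters (red, with exact binomial 95% intervals) and 8414 open ones (grey). The largest ratios are those of ETS, at 3.63% closed and 13.03% open, and YY1, at 0.660% and 7.12%.

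None of the motifs of ETS, NRF1, NFY, YY1, CRE and BANP was in 181 of the 303 closed promoters (59.7%) and in 42.0% of the open ones. Within ranges of G+C content the closed share without any of the 6 was above the open one in each of 5 ranges, from 43.9% closed and 34.6% open at 55 to 60% G+C to 75% and 59.7% at 70% or more. The share of closed promoters without any of the 6 varied by list, with 37.1% in the 7 transcription factor lists, 82.8% in the 5 neuronal lists, 9.09% in the germ line list and 91.7% among the clustered protocadherins. For the ETS motif, in the 7 transcription factor lists it was in 0 of 62 closed and 3 of 117 open promoters (2.56%), and in the 5 neuronal lists in 0 of 29 closed and 0 of 79 open ones, so the open promoters of these lists held it rarely too. NFY motifs were in 34 of 62 closed (54.8%) and 58 of 117 open (49.6%) promoters of the transcription factor lists. The part of gene class in the share of all closed promoters was not tested.

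In the germ line list the E-box was in 10 of the 11 closed ones, all but Tdrd6, and in 11 of 25 open ones of the same list (44.0%), while 22.7% of all CpG-rich promoters held it. The motif of BANP was in Fkbp6, D1Pas1 and Sycp1, and that of NRF1 in Fkbp6, Hormad1 and Slc25a31. The E-box was also in 8 of the 12 closed protocadherin promoters, but those sequences resemble each other and do not count separately. Of the 29 closed neuronal promoters 22 held the GC box (75.9%), against 44 of the 79 open ones (55.7%), and 2 held the REST motif (Gabra5 and Kcnk15), against 14 of 79. A match of letters is not a bound site, and a missing match says nothing of the factor.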

How the data were processed

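The deposited files of each of the 2 libraries hold a smaller and a larger list of peaks with a signal score per peak, runs of bases with their FDR (a p-value adjusted by the authors, listed at 0.05 or below) and footprints, all on mm10, per the labels and the file listings. The signal scores of the authors were used only to rank peaks within a list. Not given in the sources used here are the aligner, the caller, the thresholds, how reads with several matches were treated and whether alignment allowed for both parental alleles of the hybrid. No read counts are given, so depth is unknown. The lists hold 94786 and 77403 peaks (smaller) and 145663 and 117300 peaks (larger) in replicates 1 and 2.

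Regions were cut from GRCm38 around the 5′ ends of GENCODE protein-coding genes on 19 autosomes, and distances run from a peak edge to a transcript 5′ end. Uniqueness used 31-base words on both strands. Intervals are exact binomial (95%) and cover counting error only. No test was made, since the rule used both libraries. The members, the 24 gene lists, matched by symbol, and the motifs were chosen with earlier results of these data known. Named genes were up to 4 members per list with the longest distance to a peak, 10 with the highest CpG ratio, 6 by larger-list score, 6 by bases at FDR 0.05, 4 on each side of each threshold, runs of neighbours and members of the lung and housekeeping lists. Some items that this rule names, or that the design would show, are not reported here. Alternatives changed the ratio, the window, the peak list, the FDR, the libraries and the regions kept. The distance and motif functions were tested on simulated peaks and sequences. Python 3.11.15, numpy 2.4.6, pandas 2.3.3, scipy 1.17.1, numba 0.67.0, bedtools 2.31.1 and matplotlib 3.10.9 were used.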

Additional observations from a re-analysis of the deposited data

How the results depend on the processing

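The number of closed CpG-rich promoters, 303, was 155 with a ratio of 0.75 or more, 175 with the larger peak lists and 704 with the higher-scoring 50% of peaks. Without replicate 1 it was 458 and without replicate 2 it was 317, so replicate 1 keeps 155 promoters out and replicate 2 keeps 14 out. Under the other 8 alternatives it ran from 227 to 415. The share with a base at FDR 0.05 or below, 35.6% in replicate 1 and 13.9% in replicate 2, was 16.8% and 4.62% at FDR 0.01, 3.30% and 0.990% at FDR 0.001, and 44.6% and 21.1% within 1 kb of any transcript 5′ end. In replicate 1 it was 41.9% with a ratio of 0.75 or more. The share with a peak of the larger list stayed within its interval under all 6 alternatives in each library.

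Most lists hold too few CpG-rich promoters for their intervals to show a change. Of 21 alternative values for motifs 15 stayed within their intervals, the other 6 being the shorter window. With the larger lists the closed share was 33.3% for Hox promoters and 21.5% for other homeobox promoters. It fell to 0% for the T-box, SOX and WNT lists and the list of lung vessels and stroma, so Tbx21, Sox1, Wnt3a, Wnt6 and Wt1 were then open. The share did not change for the bHLH, germ line, FGF, embryonic and placental and histone lists. The other settings below used the smaller lists. Without replicate 1 the closed share was 53.2% for other homeobox promoters, 42.3% for bHLH, 55.6% for secreted morphogens, 50% for T-box and 40% for WNT. It was 75% for embryonic and placental, 42.9% for lung vessels and stroma and 8.33% for lung epithelium. At a ratio of 0.75 or more it was 12.5% for the germ line list and 0 of 2 for clustered protocadherins. No paired analysis was possible because the libraries form 1 group. Both libraries have an unknown depth, so how many closed promoters deeper sequencing would open cannot be told.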
